A study of Mus musculus with 2 samples.

Results

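Basal keratinocytes of day 5 skin wounds were examined in 2 single-cell RNA libraries of live wound cells from C57BL/6 mice, 1 labelled PBS and 1 labelled diphtheria toxin (DTX). Per the labels, both came from *Mrc1-DTR* mice of 7 to 9 weeks of age, wound tissue of back skin was taken with a 10 mm punch, and 7AAD-negative cells were sorted. *Mrc1-DTR* mice carry the receptor for diphtheria toxin under the *Mrc1* promoter, so that the toxin is meant to remove macrophages with CD206, the product of *Mrc1*, and not keratinocytes. The study's methods describe the control animals differently, as wild-type mice given the toxin, its text assigns the totals of cells to the opposite groups, and each library held cells of pooled mice. The question behind the comparison was what the loss of these macrophages does to the cells of a healing wound.

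*Mrc1*, the gene whose promoter drives the receptor, was at the same summed level in myeloid cells of both libraries, while the share of these cells with a UMI was lower in the library labelled DTX. In cells outside the keratinocyte gate with at least 20 *Lyz2* unique molecular identifiers (UMIs, each 1 captured transcript), it was at 373 CPM (UMIs of the gene over all UMIs of the cells summed, on the CPM scale) in the library labelled PBS and at 373 CPM in the library labelled DTX, over 1419 and 3807 cells. After thinning to 5000 UMIs per cell, 65.7% (62.7 to 68.7%) and 59.5% (57.8 to 61.2%) of these cells had an *Mrc1* UMI. These cells were 17.0% and 53.0% of the kept cells. Keratinocytes of the gate were 23.5% and 3.03%. The study's text describes a larger immune share and a smaller number of epithelial cells in its depleted wounds, which is the direction under these labels. Group names below stand for the labels of the libraries, and every direction given between them rests on those labels.

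The basal keratinocytes were 879 of 23089 cell barcodes, 806 in the library labelled PBS and 73 in the library labelled DTX. They were chosen by thresholds on UMIs. Barcodes with fewer than 500 genes, or with over 6% of UMIs from mitochondrial genes, were dropped, which left 8326 and 7188 cells. Of these, a gate held cells in which *Krt5*, *Krt14*, *Krt1*, *Krt10*, *Krt6a*, *Krt16*, *Krt17* and *Lgals7* together made at least 1.5% of UMIs, with *Col1a1* and *Col3a1* under 0.5% and fewer than 5 *Lyz2* UMIs. Within the gate, members had at least 20 UMIs of *Krt5* and *Krt14*, fewer than 20 of *Krt1* and *Krt10*, fewer than 5 of *Krt79* and fewer than 3 of *Mki67* and *Top2a*. Their UMIs summed to 10041256 and 1119434, with a median of 11866.5 and 14493 UMIs per cell and of 2748.5 and 3095 genes. The mitochondrial share had a median of 4.54% and 5.20%. The libraries shared 37 cell barcodes, and no barcode was a member in both. With 1 library per group no test was possible. Differences between animals and between captures cannot be told apart from those between groups, and the intervals given are 95% intervals of counting error only.

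Basal keratinocytes are the lowest layer of the epidermis. They hold the tissue to its basement membrane through hemidesmosomes and integrins, they include its stem cells, and they supply the spinous and cornified layers by leaving the membrane, at which point the keratins Krt5 and Krt14 give way to Krt1 and Krt10. After wounding, keratinocytes at the margin take on the keratins Krt6, Krt16 and Krt17, loosen their contacts, make proteases and laminins, and migrate under the clot while cells behind the front divide.

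Markers of the basal layer that the rule did not use were present, given here as a description of the class. The wider basal identity list separated less from spinous cells, as given below. *Krt15*, a keratin of the basal layer and the hair follicle bulge, was at 1437 CPM in basal cells of the library labelled PBS and 1022 CPM in those labelled DTX. In the spinous class, gated cells with at least 20 UMIs of *Krt1* and *Krt10*, it was at 453 and 159 CPM. *Trp63*, the transcription factor p63 that maintains the basal layer, was at 154 and 175 CPM. *Col17a1*, the hemidesmosomal collagen XVII, was at 870.2 and 655 CPM against 208 and 91.3 CPM in spinous cells. *Itga6*, the integrin α6 chain of hemidesmosomes, was at 389 and 532 CPM against 96.7 and 74.9 CPM. The genes of the rule are given as a description only: *Krt14* stood at 11472 and 10309 CPM, *Krt5* at 3670.1 and 3092 CPM, *Krt1* at 106 and 42.9 CPM, and *Krt10* at 75.4 and 27.7 CPM.

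**Figure D1:**
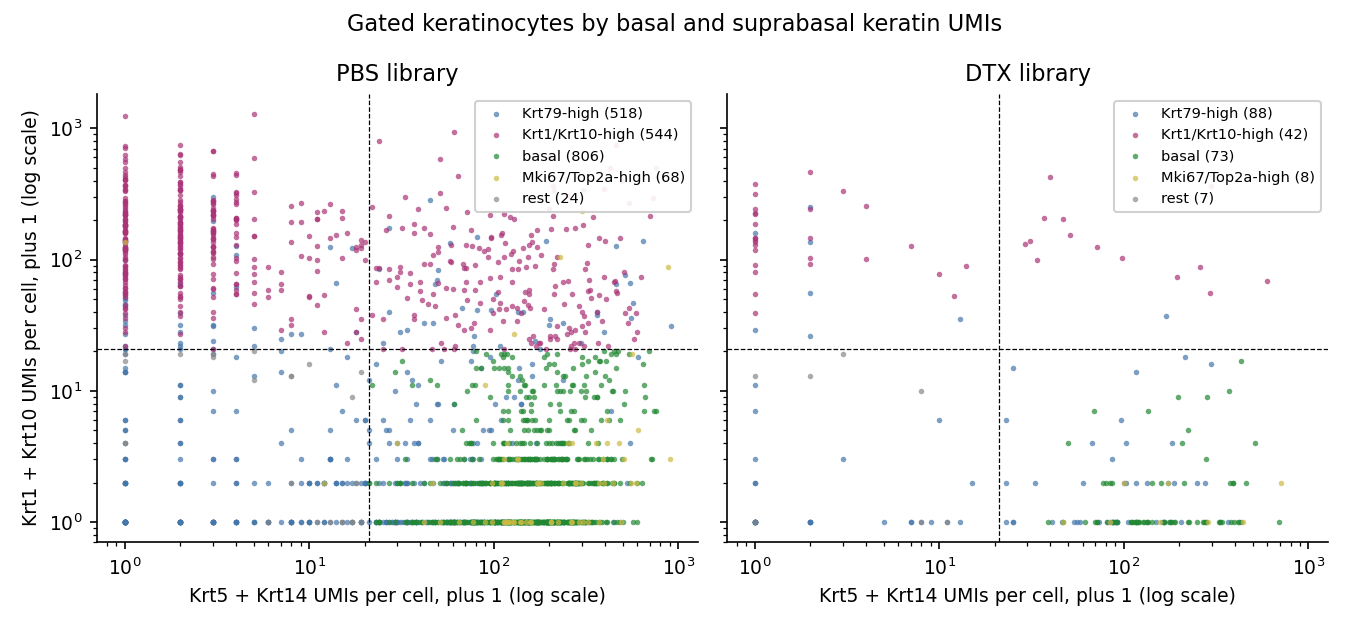
Gated keratinocytes of each library by UMIs of Krt5 and Krt14 (horizontal) and of Krt1 and Krt10 (vertical), each plus 1 on a log scale, 1 point per cell, coloured by class with the number of cells in the key. Dashed lines mark the limit of 20 UMIs, and the basal cells fill the lower right of both panels, 806 and 73 cells.

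The members lay well inside the keratin limit. Their *Krt5* and *Krt14* UMIs ran from 20 to 755 with a median of 162.5 in the library labelled PBS, and from 38 to 694 with a median of 165 in that labelled DTX. In the PBS library 12 members had 20 to 29 of these UMIs, and 10 cells with 10 to 19 failed on this limit alone. The limit on *Krt1* and *Krt10* cut through more cells, with 66 members at 10 to 19 UMIs and 37 cells just outside at 20 to 29. In the DTX library that limit had 1 member just inside and no cell just outside. The plot of keratin UMIs shows the same band, since basal and spinous cells of the PBS library form 1 stretch along the right side.

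Fewer keratinocytes were recovered in the library labelled DTX, by a margin that depends on the mitochondrial limit. With up to 10% of UMIs mitochondrial in place of 6%, gated cells numbered 2471 and 465 and basal cells 1003 and 158, against 1960 and 218 and 806 and 73 at 6%. Gated keratinocytes were 1960 of 8326 kept cells in the PBS library (23.5%, exact Clopper-Pearson interval 22.6 to 24.5%) and 218 of 7188 in the DTX library (3.03%, 2.65 to 3.46%). Basal cells were 9.68% (9.05 to 10.3%) and 1.02% (0.797 to 1.28%) of kept cells. A lower share of cells and a larger number of other cells in the same library cannot be told apart here. Among gated cells, the basal share was 41.1% (38.9 to 43.3%) against 33.5% (27.3 to 40.2%), intervals that overlap. They also overlapped with doublets left out, at 41.3% (39.1 to 43.5%) against 33.0% (26.7 to 39.8%). With up to 10% mitochondrial UMIs they did not, at 40.6% (38.6 to 42.6%) against 34.0% (29.7 to 38.5%). Nor did they with the limits of the rule set as shares of UMIs, at 42.8% (40.6 to 45.0%) against 33.6% (27.3 to 40.4%). Cells high in *Krt79*, a keratin of the follicle infundibulum and sebaceous duct, were 26.4% (24.5 to 28.4%) against 40.4% (33.8 to 47.2%). Dividing cells, set apart by *Mki67* and *Top2a*, were 3.47% (2.70 to 4.38%) and 3.67% (1.60 to 7.10%).

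Genes of adhesion to the basement membrane were higher in basal than in spinous cells of both libraries. Members and spinous cells were separated by keratin UMIs, so the comparison describes the split and tests nothing. Of 3919 genes with a mean of at least 25 CPM over the 4 sums, leaving out the genes of the rule, 7.22% were at least 2-fold higher in basal cells in both libraries and 6.33% at least 2-fold lower. All 11 genes of the hemidesmosome and basement membrane list that passed were at least 2-fold higher in each library, with a median log2 ratio of 2.47 in the PBS and 2.99 in the DTX library. Over all 3919 genes that median was 0.16 and 0.20. The basal identity list separated less. Of its 9 passing genes, 3 in the PBS and 4 in the DTX library were at least 2-fold higher in basal cells, and none at least 2-fold lower. Its median was 0.39 and 0.33. It summed to 11762 and 11499 CPM in basal cells and to 11243 and 12127 CPM in spinous cells. *Lamb3*, the β3 chain of laminin-332 on which keratinocytes migrate, was at 117 CPM in basal and 7.86 CPM in spinous cells of the PBS library, and at 103 and 1.17 CPM in the DTX library. *Itga2*, the integrin α2 chain that binds collagen, was at 268 and 25.1 CPM in the PBS library and at 273 and 9.37 CPM in the DTX library. Both genes were thus more than 10 times higher in basal cells of either library.

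In the ranking by the smaller of the 2 ratios, *Has2*, a hyaluronan synthase, came first, with 61.7 CPM in basal against 1.59 CPM in spinous cells in the PBS library, and 80.4 CPM against no UMI in the DTX library. *Ptn*, the growth factor pleiotrophin, followed at 82.2 against 3.29 CPM in the PBS library and 155 CPM against no UMI in the DTX library. *Nedd9*, a scaffold of integrin signalling, was at 99.7 against 4.89 CPM in the PBS library. *Ccnd2*, the G1 cyclin D2, was at 256 against 17.7 CPM in the PBS library and at 246 against 7.03 CPM in the DTX library. *Tnfrsf4*, *Angptl4*, *Arl4c*, *Phldb2*, which ties the cortex to sites of integrin adhesion, and *Timp3*, an inhibitor of matrix proteases, completed the 10 highest. After each cell was thinned to 5000 UMIs, which 20 and 2 members did not reach, *Has2* had a UMI in 20.2% (17.5 to 23.2%) and 19.7% (11.2 to 30.9%) of basal cells, against 31.1% and 41.1% before thinning. In the cells with at least 20 *Lyz2* UMIs, whose median depth was 6253 and 7485 UMIs, the thinned shares were 2.24% and 0.415%.

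At the other end stood genes of the cornified layers. Of 13 passing genes of terminal differentiation, 12 were at least 2-fold lower in basal cells in each library, and the list median was -4.18 and -4.38. *Cnfn*, cornifelin of the cornified envelope, was at 3.29 CPM in basal and 415 CPM in spinous cells of the PBS library, and had no UMI in basal cells of the DTX library. *Flg*, which encodes filaggrin, and *Cdsn*, which encodes corneodesmosin, had 6 and 7 UMIs in all 806 members of the PBS library. *Gm94*, *Lce3c*, *Skint9*, *Slc5a8*, *Krt77* and *Tesc* were also among the 10 lowest. Genes shared by the layers did not separate in this way, since *Sfn*, the 14-3-3σ protein of epidermis, stood at 7784 and 8112 CPM in basal and 8964 and 10222 CPM in spinous cells.

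**Figure D2:**
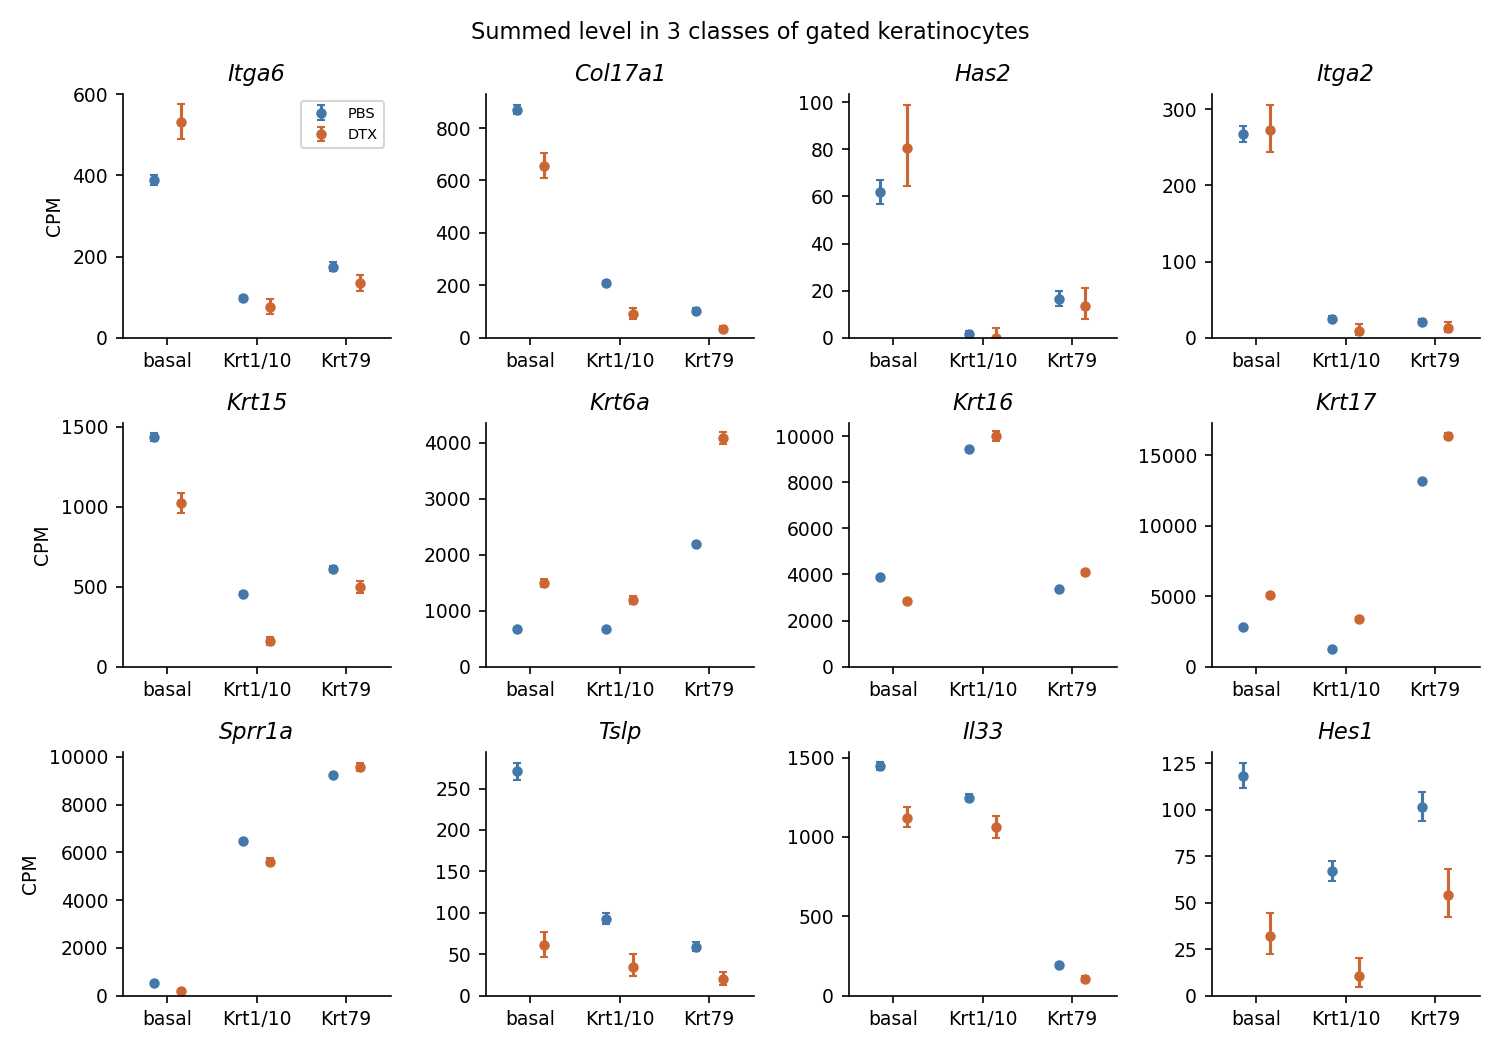
Summed level in CPM of 12 genes in basal, spinous (Krt1/10) and Krt79-high gated keratinocytes, with 1 point per library (blue PBS, orange DTX) and exact Poisson 95% intervals, and a vertical axis of its own from 0 for each gene. Itga6, Col17a1, Has2 and Itga2 are highest in basal cells of both libraries, while Hes1 and Tslp are lower in the DTX library in each class.

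Few genes differed past 2-fold between basal cells of the 2 libraries. Of 4134 genes with a mean of at least 25 CPM over the 2 libraries, 48 were at least 2-fold higher in the library labelled DTX (1.16%) and 25 at least 2-fold lower (0.605%), on a scale of log2(CPM + 1). The median log2 ratio over these genes was 0.05, with 2364 genes above 0 and 1770 below. Adhesion genes differed little: of the 14 passing genes of the hemidesmosome list none was past 2-fold, 8 were higher and 6 lower, and the median was 0.03. *Itgb1*, the β1 chain shared by integrins, was at 608 and 554 CPM (log2 ratio -0.13, interval -0.26 to -0.02). The log2 ratio of *Col17a1* was -0.41 (-0.52 to -0.30) and that of *Itga6* was 0.45 (0.32 to 0.57), so these hemidesmosomal genes had opposite signs.

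**Figure D3:**
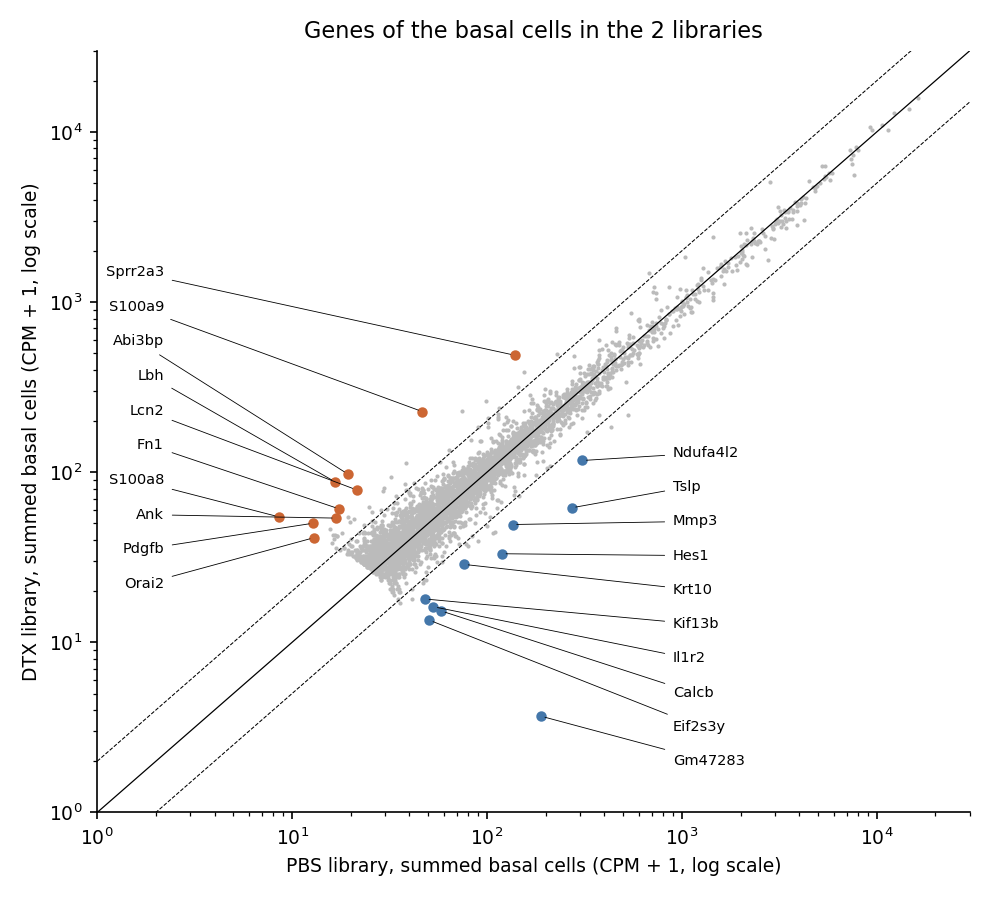
Summed level of each of the 4134 genes that passed the filter in basal cells of the PBS library (horizontal) and the DTX library (vertical), in CPM plus 1 on log scales, with the line of equality and dashed lines at 2-fold. Orange points are the 10 genes with the highest and blue points the 10 genes with the lowest ratio, and all of them lie under 500 CPM in both libraries.

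The wound keratins split. *Krt6a* had 6821 UMIs in the library labelled PBS and 1666 in that labelled DTX, or 679 and 1488 CPM (log2 ratio 1.13, 1.05 to 1.21). It had a UMI in 439 of 806 and 53 of 73 cells. *Krt17* was at 2842 and 5062 CPM (0.83, 0.79 to 0.87), short of 2-fold. *Krt16*, the usual partner of Krt6 in activated epidermis, went the other way at 3897 and 2851 CPM (-0.45, -0.50 to -0.40). *Krt6a*, *Krt16* and *Krt17* were counted in the gate, which took them only as part of a sum of 8 genes. In other classes of the gate *Krt6a* was at 672 and 1186 CPM in spinous cells and at 2185 and 4074 CPM in *Krt79*-high cells. *Krt17* was at 1241 and 3377 CPM in spinous cells. The same sum of keratins admitted these classes, so their values are a description and lend no support to the basal ratios. The log2 ratio of *Krt15* was -0.49 (-0.58 to -0.40).

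Of 18 passing genes of the wound activation list, 4 were at least 2-fold higher in the DTX library, 2 at least 2-fold lower, and the median was 0.09. The 4 include *Krt6a*, a gene of the gate, and the median was -0.34 with a filter of 100 CPM and -0.24 without the highest cell of each gene. *Tnc*, the matrix protein tenascin C, was higher at 28.3 and 76.8 CPM (1.41, 1.08 to 1.79), from 113 and 17 cells with a UMI. *Sprr1a*, a small proline-rich protein of the cornified envelope that wounding induces, was lower at 529 and 216 CPM (-1.29, -1.48 to -1.10). It was abundant in spinous cells of both libraries, at 6489 and 5617 CPM. Members just inside the limit on *Krt1* and *Krt10*, at 10 to 19 UMIs, were 66 of 806 in the PBS and 1 of 73 in the DTX library. Their part in the *Sprr1a* ratio was not tested. *Mmp3*, the protease stromelysin-1, was lower at 134 and 48.2 CPM (-1.46, -1.90 to -1.09), and 51.9% of its 54 UMIs in the DTX library lay in 1 cell. Cells outside the gate also had less of it, 1560 against 292 CPM, as had spinous cells, 27.2 against 3.51 CPM, and the part of that background in the basal values was not tested. The remaining 2 higher genes were *S100a8* and *S100a9*, described below with the antimicrobial genes.

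The promoters of the 2 wound genes that were lower are shown as a description, with the letters of the AP-1 motif marked, the element through which Fos and Jun proteins act on many epidermal and protease genes. They are RefSeq sequences of 300 bases, 250 before and 50 after the start of the gene, in build GRCm38.p6. *Sprr1a* lies on the minus strand at chr3:92485832-92486131 and *Mmp3* on the plus strand at chr9:7445572-7445871. Capitals mark matches to TGANTCA, which reads the same way on both strands, and the first bases of the matches lie 146 and 116 bases before the start in *Sprr1a* and 46 bases before it in *Mmp3*.
Sprr1a: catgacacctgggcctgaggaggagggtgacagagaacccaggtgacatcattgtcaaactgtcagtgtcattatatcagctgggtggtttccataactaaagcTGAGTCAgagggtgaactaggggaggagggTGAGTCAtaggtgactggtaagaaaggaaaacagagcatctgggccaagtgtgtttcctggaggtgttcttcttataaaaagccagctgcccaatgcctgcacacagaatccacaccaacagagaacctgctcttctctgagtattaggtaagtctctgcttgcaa
Mmp3: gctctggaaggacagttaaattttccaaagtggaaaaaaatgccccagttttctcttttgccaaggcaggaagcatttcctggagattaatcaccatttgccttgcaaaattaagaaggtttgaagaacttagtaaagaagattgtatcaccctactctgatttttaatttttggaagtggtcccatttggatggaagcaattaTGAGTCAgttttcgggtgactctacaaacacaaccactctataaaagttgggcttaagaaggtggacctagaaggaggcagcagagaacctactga
Of 32851 mouse promoters of this length, 7.81% hold the motif, and a match is not a site of action. The promoters listed for the higher genes *S100a8*, *S100a9* and *Tnc* hold no match, none was listed for *Krt6a*, and nothing is drawn from either. The immediate early and heat shock list, whose genes respond to tissue dissociation as well as to injury, had 20 of 20 genes passing, none past 2-fold, 14 lower and 6 higher in the DTX library, and a median of -0.20.

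Signals by which basal cells address other cells of the wound were mostly alike. Of 13 passing cytokine and chemokine genes 1 was at least 2-fold higher and 1 at least 2-fold lower, with a median of 0.17, which was -0.10 after thinning and -0.33 without the highest cell of each gene. *Tslp*, an epithelial cytokine that acts on dendritic cells and lymphocytes, was the lower one, with 2721 UMIs in 282 of 806 cells and 68 UMIs in 17 of 73 cells, or 271 and 60.7 CPM (-2.14, -2.53 to -1.81). After thinning, 23.8% (20.9 to 26.9%) and 12.7% (5.96 to 22.7%) of basal cells had a *Tslp* UMI, against 1.83% and 0.296% of the *Lyz2*-high cells. In spinous cells it was at 92.8 and 35.1 CPM. *Il33*, the nuclear alarmin of the interleukin-1 family, was the most abundant gene of the list at 1445 and 1122 CPM (-0.37, -0.45 to -0.28). *Cxcl2*, which attracts neutrophils, was the higher one at 227 and 497 CPM (1.12, 0.99 to 1.26), while in spinous cells it was at 63.8 and 31.6 CPM. In cells outside the gate *Cxcl2* was at 2379 and 4725 CPM, and its part in the basal value was not tested. *Ccl27a*, a chemokine of the epidermis for skin-homing T cells, was at 734 and 602 CPM and *Cxcl16* at 710.1 and 593 CPM.

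Growth factor genes gave few differences past 2-fold. None of 7 passing genes of the EGF receptor pathway was past 2-fold, and the median was 0.10, or -0.082 with up to 10% mitochondrial UMIs. *Hbegf*, the heparin-binding EGF receptor ligand of migrating keratinocytes, was at 602 and 774 CPM (0.36, 0.26 to 0.47), and *Areg*, which encodes amphiregulin, at 518 and 339 CPM (-0.61, -0.77 to -0.46). The ligand *Epgn* was at 455 and 461 CPM. *Pdgfb*, a chain of platelet-derived growth factor, was at 11.9 and 49.1 CPM (1.96, 1.56 to 2.52), from 71 of 806 and 11 of 73 cells. *Pdgfa*, the ligand that the study followed in macrophages, was at 22.6 and 31.3 CPM (0.45, -0.09 to 0.99), and its interval includes no difference. The PDGF receptor *Pdgfra*, a fibroblast gene, had 11 and 2 UMIs. Of 10 passing genes of the TGF-beta and BMP list *Bmp2* alone was past 2-fold, at 47.8 and 22.3 CPM (-1.06, -1.74 to -0.52). *Fst*, which encodes the activin antagonist follistatin, was the most abundant of them at 948 and 1076 CPM.

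*Hes1*, a transcription factor switched on by Notch signalling, was lower in the library labelled DTX in the basal, spinous and *Krt79*-high classes. In basal cells it had 1189 UMIs in 454 of 806 cells and 36 UMIs in 23 of 73 cells, or 118 and 32.2 CPM (-1.85, -2.40 to -1.40). The thinned shares of basal cells with a UMI were 36.1% (32.8 to 39.6%) and 12.7% (5.96 to 22.7%), and those of *Lyz2*-high cells 6.1% and 4.45%. In spinous cells it was at 67.0 and 10.5 CPM, in *Krt79*-high cells at 102 and 54.2 CPM, and in cells outside the gate at 68.4 and 23.3 CPM. Of 8 passing genes of the Notch and Wnt list *Hes1* alone was past 2-fold and the median was -0.03. The receptor *Notch1* was at 58.5 and 56.3 CPM, the ligand *Jag1* at 62.0 and 94.7 CPM, the ligand *Dll1* at 57.4 and 57.2 CPM and *Wnt10a* at 57.8 and 69.7 CPM.

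**Figure D4:**
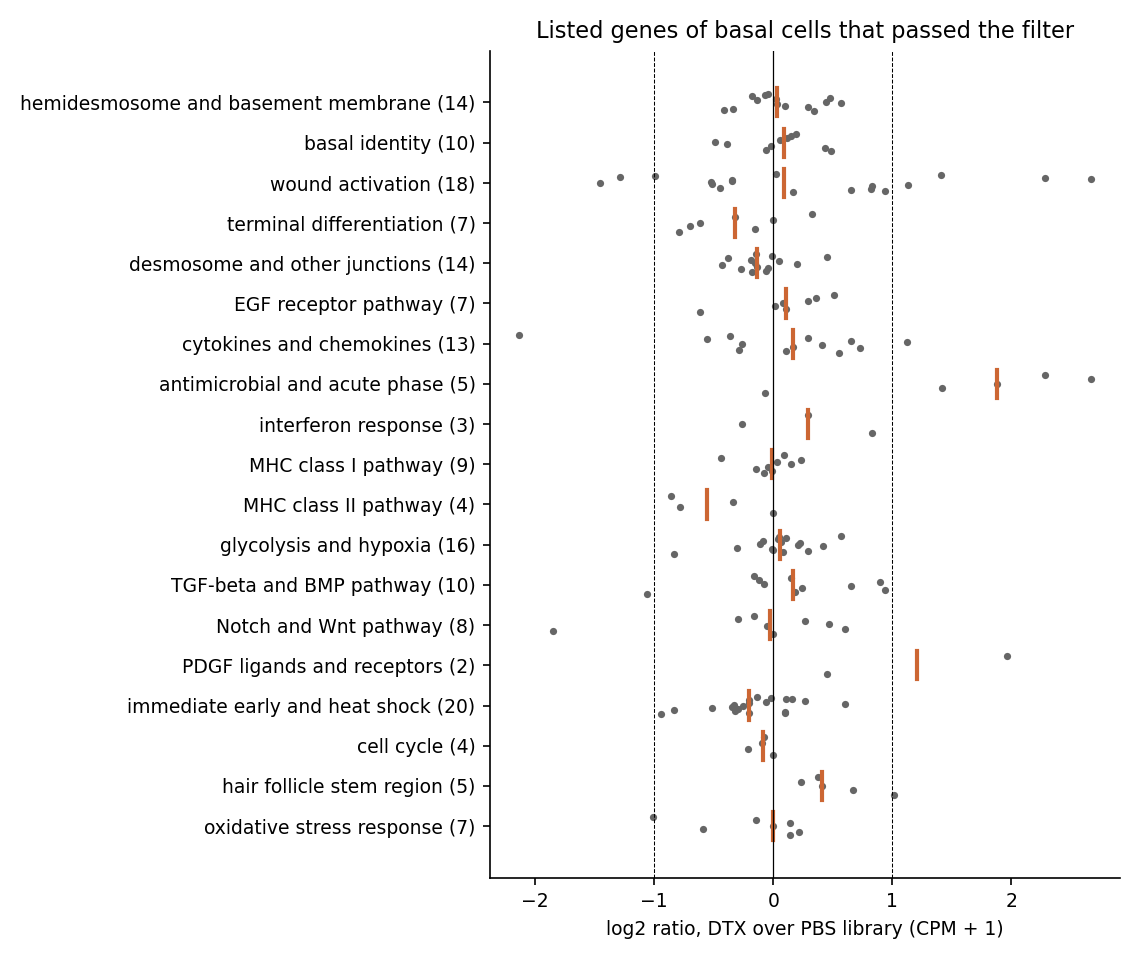
Log2 ratio of the DTX over the PBS library in basal cells for the genes that passed the filter (number in brackets) in 19 lists, those of other cell types and of the background check left out, 1 point per gene, with the list median as an orange bar and dashed lines at 2-fold. Most points lie between the dashed lines, and of the lists shown those with medians past 2-fold, antimicrobial and PDGF, hold 5 and 2 genes.

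Of 5 passing antimicrobial genes 4 were at least 2-fold higher in the library labelled DTX, with a median of 1.88. With no filter on low genes the median over 12 genes was -0.10, the opposite sign. *S100a8* and *S100a9* encode the 2 chains of calprotectin, which neutrophils hold in bulk and activated keratinocytes also make. *S100a8* had 76 UMIs in 24 cells of the library labelled PBS and 60 UMIs in 8 cells of that labelled DTX, 7.57 and 53.6 CPM (2.67, 2.31 to 3.33), and 53 of the 60 UMIs lay in 1 cell. That cell also held 168 of the 253 *S100a9* UMIs and 370 UMIs of *Krt5* and *Krt14*. Without the cell highest in each gene in each library, the log2 ratio was 0.57 for *S100a8* and 0.94 for *S100a9*. Of the 8 genes of the neutrophil list, 3 had no UMI in the members of each library, *Csf3r* and *Ly6g* in both, *Retnlg* in the PBS library and *Mmp8* in the DTX library. The list summed to 107 and 300.2 CPM in basal cells, with *Il1r2* and *S100a9* its most abundant genes, and to 445 and 2569 CPM in cells outside the gate. In basal cells of the DTX library 221 of its 336 UMIs lay in 1 cell. Without the cell highest in the list, the basal sums were 97.9 and 105 CPM. *Lcn2*, the iron-withholding protein lipocalin-2, was at 20.4 and 77.7 CPM (1.88, 1.55 to 2.30) from 54 and 14 cells, and its ratio without the highest cells was 1.71. *Defb6*, a beta-defensin, was at 97.3 and 262 CPM (1.42, 1.23 to 1.62) but stood at 7395 and 7260.3 CPM in *Krt79*-high cells. *Defb1* was at 55.5 and 52.7 CPM.

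The other genes with the highest ratios had low levels and came from a minority of members. *Lbh*, a transcriptional cofactor, was at 15.6 and 86.7 CPM (2.40, 2.09 to 2.84) from 77 of 806 and 17 of 73 cells. *Abi3bp*, a matrix protein, was at 18.3 and 96.5 CPM (2.33, 2.04 to 2.75) from 78 and 12 cells. *Fn1*, the fibronectin of the provisional matrix, was at 16.4 and 59.9 CPM (1.80, 1.43 to 2.28) from 98 and 11 cells. After thinning, *Fn1* had a UMI in 5.22% and 12.7% of basal cells and in 32.8% and 53.9% of the *Lyz2*-high cells, it was at 755 and 549 CPM in cells outside the gate, and the part of these cells in the basal values was not tested. *Sprr2a3* was at 138 and 486 CPM (1.81, 1.68 to 1.97) from 187 and 26 cells. *Orai2*, a calcium channel subunit, and *Ank*, a transporter of pyrophosphate, completed the 10 highest. Over the 48 genes the median gene had a UMI in 25 DTX cells, and its 5 highest cells held 47.9% of its DTX UMIs. Leaving out the highest cell of each gene in each library, 30 of these 48 genes stayed past 2-fold. With the filter applied again to the values left, 24 of 3954 genes were at least 2-fold higher.

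Among the 10 lowest ratios, *Calcb*, which encodes a calcitonin gene-related peptide, was at 57.2 and 14.3 CPM (-1.93, -2.82 to -1.29), with 10 of its 16 DTX UMIs in 1 cell. *Il1r2*, the decoy receptor for interleukin-1, was at 52.1 and 15.2 CPM (-1.71, -2.57 to -1.09) from 239 and 8 cells. *Ndufa4l2*, a mitochondrial protein of the hypoxic response, was at 308 and 116 CPM (-1.40, -1.67 to -1.15) and was lower in spinous cells too, at 379 and 102 CPM. *Kif13b*, a kinesin, was at 47.1 and 17.0 CPM, and *Krt10*, bounded by the rule, was also among them. *Gm47283*, a gene model on chromosome Y at 90784738 to 90816464 of GRCm38, had the lowest ratio, with 1889 and 3 UMIs (-5.68, -8.41 to -4.58). *Gm47283* was lower in cells outside the gate as well, at 174 and 3.02 CPM. *Mid1* on chromosome X was also lower in both, with 384 and 3 UMIs in basal and 74.7 and 4.15 CPM in other cells. *Eif2s3y* on chromosome Y was lower in basal cells, at 49.5 and 12.5 CPM (-1.90, -2.87 to -1.22), but at 37.0 and 32.2 CPM in other cells. The Y-linked genes *Ddx3y*, *Uty* and *Kdm5d* were at like levels in basal cells of both libraries, at 136 and 124, 11.9 and 12.5, and 10.8 and 10.7 CPM.

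Metabolic and antigen presentation genes were near the background. Of 16 passing genes of glycolysis and hypoxia none was past 2-fold and the median was 0.06, with *Gapdh* at 939 and 930 CPM. Of 9 MHC class I pathway genes none was past 2-fold and the median was -0.01, with *H2-K1* at 1484 and 1344 CPM and *B2m* at 1173 and 1113 CPM. Of 28 interferon response genes 3 passed the filter and none of these was past 2-fold, while 0 and 7 of the 28 had no UMI in the PBS and DTX library, and *Ifitm3*, an antiviral membrane protein, made most of the list at 1282 and 1574 CPM. *Txnrd1*, a thioredoxin reductase, was the sole gene past 2-fold among 7 of the oxidative stress response, at 145 and 71.5 CPM (-1.01, -1.37 to -0.70). None of 14 passing genes of desmosomes and other junctions was past 2-fold, but 11 were lower and the median was -0.14, with *Perp*, a desmosomal membrane protein, at 2659 and 2040.3 CPM (-0.38, -0.44 to -0.32). None of 7 passing genes of terminal differentiation was past 2-fold, 6 were lower, and the median was -0.32. For this list the members were bounded by the limit on *Krt1* and *Krt10*. None of 10 basal identity genes was past 2-fold, with a median of 0.09, and none of 4 cell cycle genes, with a median of -0.09.

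RNA of other cell types was found in basal cells of both libraries. The 12 genes of the fibroblast list summed to 606 and 421 CPM in basal cells and to 64379 and 14807 CPM in cells outside the gate, none was at 0, and *Sparc* and *Col3a1* were the most abundant. In the DTX library 278 of the 471 UMIs lay in 1 cell, and without the cell highest in the list the sums were 553 and 177 CPM. *Col1a2*, a chain of collagen I, was at 88.8 and 38.4 CPM, and 67.4% of its 43 DTX UMIs lay in 1 cell that held 48 *Col3a1* UMIs and 392 of *Krt5* and *Krt14*. Without the highest cells its ratio went from -1.19 to -2.52. Of the 14 genes of the macrophage list none was at 0, and they summed to 5810 and 5346 CPM, nearly all *Apoe*, which basal cells held at 5747 and 5214 CPM against 3098 and 3465 CPM in cells outside the gate. *Lyz2*, bounded by the rule, was at 12.5 and 29.5 CPM, and *Mrc1* had 22 and 8 UMIs with 5 of the 8 in 1 cell. *Cd207*, the langerin of Langerhans cells, had 281 and 1 UMIs, and 210 of the 281 lay in 1 cell. The Langerhans list summed to 402 and 320 CPM, with *Cd74* on top at 210.1 and 209.9 CPM. Of 4 passing MHC class II genes none was past 2-fold and the median was -0.56, or 0.26 with doublets left out. Genes of T and NK cells summed to 23.9 and 10.7 CPM, led by *Trac*. In the PBS library 115 of their 240 UMIs lay in 1 cell, and without the highest cell the sums were 12.5 and 8.27 CPM. Sebocyte genes summed to 40.3 and 37.5 CPM, led by *Fasn* and *Scd1*. Melanocyte, Merkel, endothelial and erythroid genes each summed to less than 6 CPM in either library. The part of these sums in the ratios of other genes was not tested.

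Basal cells of each library ranged widely in the keratins of wound activation. Cells were ordered by the share of *Krt6a*, *Krt6b* and *Krt16* in their UMIs and split into tertiles, of 269, 269 and 268 cells in the PBS library and 25, 24 and 24 cells in the DTX library. That share ran from 0 to 0.222% in the lowest tertile of the PBS library and from 0.499 to 3.04% in the highest, and from 0 to 0.201% and from 0.496 to 1.56% in the DTX library. Median depth was 11144 and 12748 UMIs per cell in the lowest and highest tertile of the PBS library and 14454 and 15361 in the DTX library. Tertiles were cut on these 3 keratins, so what follows describes the members and tests nothing.

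At the end of this order with the most *Krt6a*, *Krt6b* and *Krt16*, the sum of the hemidesmosome and basement membrane list was lower. Those of terminal differentiation and of desmosome and other junctions were higher. *Krt17*, the remaining wound keratin, was at 3330.0, 3205 and 2043 CPM from the lowest to the highest tertile of the PBS library and at 4419, 4874 and 5925 CPM in the DTX library, so its order was opposite in the 2 libraries. The hemidesmosome and basement membrane list summed to 3704, 3641 and 2918 CPM from the lowest to the highest tertile of the PBS library and to 3705, 3811 and 2615 CPM in the DTX library. The terminal differentiation list summed to 3123, 4574 and 7316 CPM in the PBS library and to 2787, 3150.0 and 7039 CPM in the DTX library. *Sprr1a* was at 115 and 1047 CPM in the lowest and highest tertile of the PBS library and at 5.06 and 544 CPM in those of the DTX library. *Krtdap*, a secreted protein of early differentiation, went from 82.3 to 331 CPM in the PBS and from 70.9 to 420 CPM in the DTX library. *Has2* was lower in the highest than in the lowest tertile, at 41.2 against 74.1 CPM in the PBS and 53.8 against 101 CPM in the DTX library. *Tnc* was at 43.7, 28.4 and 14.1 CPM over the tertiles of the PBS library and at 101, 116 and 13.5 CPM over those of the DTX library, where the last value rests on 5 UMIs. Its higher level in the DTX library thus lay in the lowest and middle tertiles. The list of desmosome and other junctions went from 7470 to 9785 CPM and from 7034 to 8519 CPM. Genes of the MHC class II pathway were at 573, 535 and 182 CPM over the tertiles of the PBS library and at 397, 547 and 105 CPM over those of the DTX library. Without the cell that held most UMIs of the list in each tertile, which in the lowest PBS tertile had 910 of 1809, they were at 287, 303 and 172 CPM and at 254, 293 and 93.1 CPM. The Langerhans list was then at 253, 262 and 158 CPM and at 232, 266 and 90.3 CPM. The fibroblast list was at 781, 552 and 502 CPM and at 861, 238 and 126 CPM, but 278 of the 340 UMIs in the lowest DTX tertile lay in 1 cell, and without the highest cells it was at 610.0, 461 and 445 CPM and at 169, 198 and 117 CPM. The part of these cell types in the order was not tested.

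**Figure D5:**
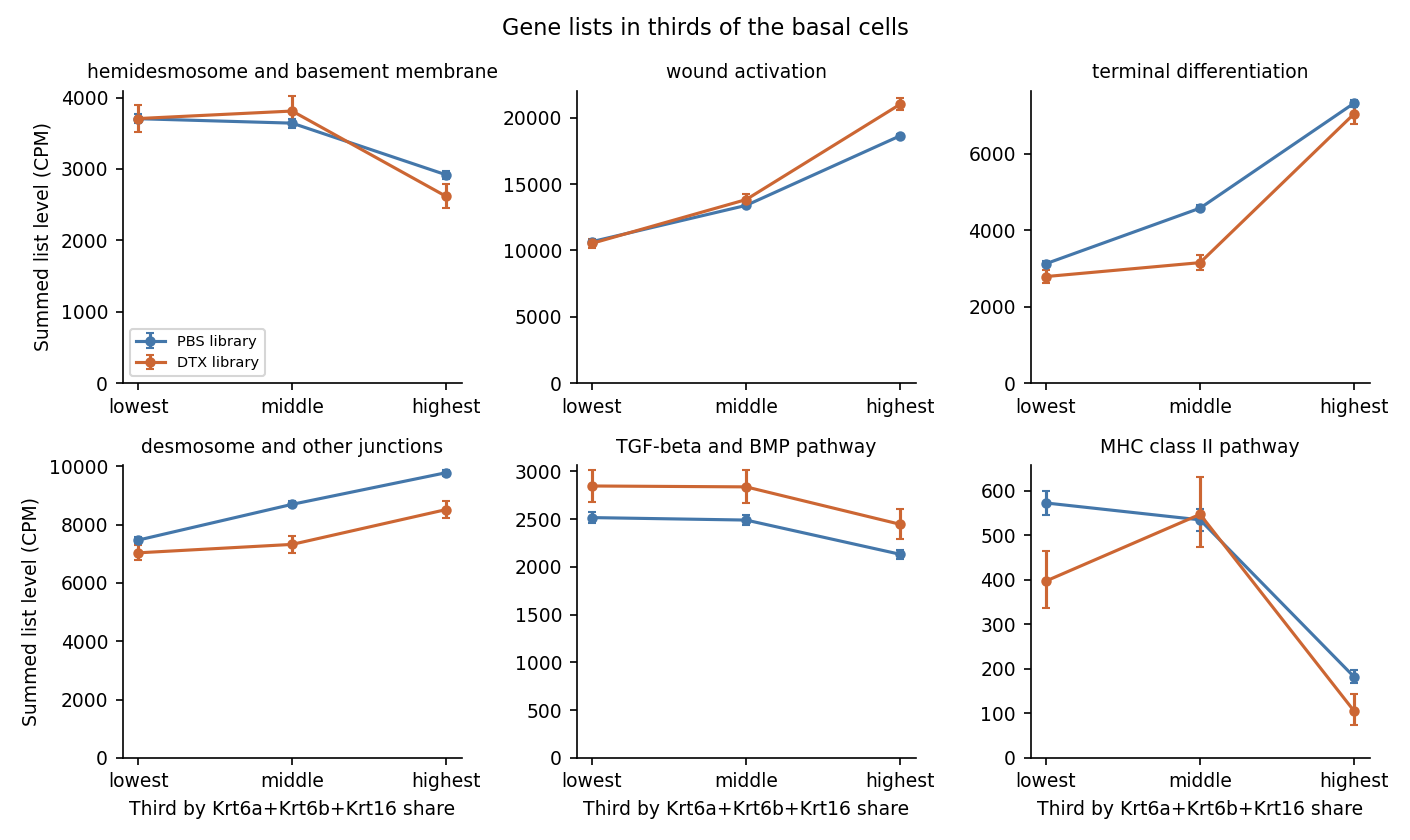
Summed level in CPM of 6 gene lists in tertiles of the basal cells of each library (blue PBS, orange DTX), ordered by the share of Krt6a, Krt6b and Krt16 in a cell's UMIs, with exact Poisson 95% intervals and vertical axes from 0. The terminal differentiation list is more than 2-fold higher in the highest than in the lowest tertile of both libraries, and the hemidesmosome list is lowest in the highest tertile.

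Genes of the hair follicle stem region list were found in basal cells and in other cells. The list summed to 808 and 1186 CPM in basal, 906 and 965 CPM in *Krt79*-high, 249 and 233 CPM in spinous and 1179.8 and 455 CPM in cells outside the gate. After thinning, 423 of 786 basal cells (53.8%) of the library labelled PBS and 45 of 71 (63.4%) of that labelled DTX had at least 3 UMIs of the list, and 125 and 6 cells had none. The share with at least 3 was 15.7% and 17.1% in spinous, 72.0% and 66.3% in *Krt79*-high, 8.34% and 2.91% in *Lyz2*-high and 51.7% and 14.7% in all kept cells outside the gate. Without *Postn* it was 32.1% and 36.6% in basal cells and 10.2% and 14.6% in spinous cells. The part of free RNA in these shares was not tested. The list was carried by *Postn*, which encodes periostin, at 373 and 594 CPM, and *Sox9*, a transcription factor of follicle stem cells, at 298 and 352 CPM. *Cd34* and *Lgr5*, markers of the bulge, had 47 and 12 UMIs in the PBS library and 6 and 5 in the DTX library. *Postn* is also a fibroblast gene, and cells outside the gate had it at 626 and 248 CPM, but spinous cells at 52.2 and 12.9 CPM. Of 5 passing genes all were higher in the DTX library with a median of 0.41, and *Nfatc1*, a regulator of stem cell quiescence, alone was past 2-fold at 56.2 and 114 CPM (1.01, 0.74 to 1.30).

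Genes differed between basal cells with and without this list, where the DTX side rests on 45 and 6 cells. Between cells with at least 3 and cells with 0 thinned UMIs of the list, *Nedd9* was at 140.2 and 30.5 CPM in the PBS library and at 202 and 43.9 CPM in the DTX library. *Ptn* was at 115 and 27.2 CPM in the PBS library, *Timp3* at 98.0 and 22 CPM, and *Arl4c* at 104 and 16.2 CPM. *Has2* was at 67.0 and 40.2 CPM in the PBS library but at 80.3 and 109.7 CPM in the DTX library. Other basal genes went either way in the PBS library, with *Krt15* at 1169 and 1637 CPM, *Col17a1* at 814 and 887 CPM, *Itga6* at 417 and 308 CPM and *Itgb1* at 621 and 533 CPM. The basal identity list was at 11059 and 12498 CPM, and the hemidesmosome and basement membrane list at 3473 and 2974 CPM. *Sfn*, which the layers share, was the most abundant gene of the basal identity list. It was at 7465 and 8208 CPM in the PBS library and at 8001 and 7911 CPM in the DTX library. In the DTX library the order was opposite for the hemidesmosome list, at 3415 and 3741 CPM, and for *Itgb1*, at 539 and 911 CPM. *Krt15*, *Col17a1*, *Itga6* and the basal identity list ran there as in the PBS library. *Fst* was at 1199 and 455 CPM in the PBS library but at 961 and 1734 CPM in the DTX library, where the second value rests on 6 cells. *Sprr1a* ran the other way, at 305 and 1036 CPM in the PBS library and 63.1 and 549 CPM in the DTX library. Median depth was 11708 and 12005 UMIs per cell in the 2 sets of the PBS library and 14493 and 14752.5 in those of the DTX library. Lists named for other cell types differed between the sets too. The neutrophil list was at 79.5 and 168 CPM in the PBS library and at 71.7 and 2447 CPM in the DTX library. As given above, 221 of the 336 UMIs of this list in DTX basal cells lay in the cell highest in it. That cell was among the 6 cells with 0 thinned UMIs of the hair follicle list, so the value of 2447 CPM rests mostly on it. The macrophage list was at 6754 and 4096 CPM and at 6125 and 3259 CPM, nearly all of it *Apoe*. *Apoe* alone was at 6699 and 4054 CPM and at 5940 and 3204 CPM. As given above, basal cells held more *Apoe* than cells outside the gate. The fibroblast list was at 687 and 622 CPM and at 541 and 165 CPM. The part of these cell types in the split was not tested.

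Levels of single genes varied widely between cells of 1 library. *Krt6a* was at 0 in 367 of 806 PBS cells and 20 of 73 DTX cells, with a median over cells of 82.7 and 414 CPM and a highest cell of 9938 and 10798 CPM. *Krt17* had a median over cells of 1715 and 3377 CPM and *Krt16* of 2629 and 1660.4 CPM. *Il33* had a median over cells of 887 CPM in the PBS and 168 CPM in the DTX library, a wider gap than between the sums, with 188 and 30 cells at 0. The hemidesmosome list had medians of 3269 and 3041 CPM and the wound activation list of 13281 and 13534 CPM.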

How the data were processed

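The deposited values were UMI counts per gene and cell barcode of 2 libraries made with Chromium 3' reagents, 1 per group, which the authors produced with Cell Ranger against mm10 and did not normalise. The submitters' processing notes give Cell Ranger 6.1.1, while the study's methods give another version and 2 technical replicates, and how these relate to the libraries is not stated in the sources used here. The totals of cells in the study equal the barcodes in the files before any filter. Libraries held 105511870 and 81858751 UMIs (PBS, DTX) in 12058 and 11031 barcodes. An upper limit of 2000 genes per cell in the study's methods was kept as an alternative only, since it left 37 and 2 members.

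UMIs of the members of a library were summed and scaled to CPM, and ratios were log2 of DTX over PBS after adding 1 CPM, for genes with a mean of at least 25 CPM. A ratio past 2-fold was a rule of size and not a test. Intervals were exact Poisson for levels, conditional binomial for ratios (without the added CPM) and Clopper-Pearson for shares, all at 95% and for counting error only. Where a gene has no UMI, a count of 3 bounds it. The code was tested on simulated counts. Free RNA was not removed, and doublets were left out only as an alternative, by Scrublet in scanpy 1.11.5, at its own threshold in the PBS library and as the top 8% of scores in the DTX library, where that threshold called none.

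The members, the 30 gene lists and the alternatives were chosen with earlier results of these data known. List sums without the cell highest in the list, and shares of cells with the hair follicle list by class, were added after seeing the data. Genes named were those of the rule and markers, up to 5 passing genes per list (past 2-fold first, then by level), the 10 highest and 10 lowest ratios of each comparison, and checks. *Cd34*, *Lgr5*, *Trp63* and *Krt6b* were chosen after their values were seen. Promoters came from RefSeq, and positions from GENCODE M21 (GRCm38). Python 3.11.15, numpy 2.4.6, scipy 1.17.1, pandas 2.3.3, anndata 0.12.19 and matplotlib 3.10.9 were used, with seed 1. Some items are not reported here.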

Additional observations from a re-analysis of the deposited data

Results flagged for a closer look

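*Calcb*, a calcitonin gene-related peptide gene, stood apart because its ratio between the libraries had opposite signs in basal and spinous cells, each past 2-fold. The log2 ratio of DTX over PBS was -1.93 in basal cells, at 57.2 and 14.3 CPM, and 1.16 in spinous cells, at 38.8 and 87.8 CPM. In the DTX library these values rest on 73 basal and 42 spinous cells, and most *Calcb* UMIs of the basal cells lay in a single cell, as given above. The difference between the classes was not tested.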

How the results depend on the processing

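No paired analysis was possible because each group had 1 library, and no library could be left out. With at most 2000 genes per cell, the basal share of gated cells was 25.3% (PBS) and 14.3% (DTX), over 37 and 2 members, and gene comparisons were not run on 2 cells. Genes at least 2-fold higher in the DTX library numbered 145, 11 and 712 with a filter of 10 CPM, 100 CPM and none, 28 with 10 CPM added, 82 after thinning and 24 without the highest cell of each gene (filter applied again), an alternative chosen after seeing the data. Genes at least 2-fold lower numbered 69, 5, 591, 16, 63 and 48 in the same order. The median of the wound activation list was -0.34 at 100 CPM, 0.32 with up to 10% mitochondrial UMIs (1003 and 158 members) and -0.24 without the highest cells. That of terminal differentiation was -0.62 with no filter, and that of the EGF receptor pathway 0.29 at 10 CPM, 0.33 with no filter and -0.082 with up to 10% mitochondrial UMIs. Cytokines and chemokines had -0.10 after thinning and -0.33 without the highest cells. Antimicrobial genes had 1.42 at 10 CPM, 1.00 without the highest cells and the opposite sign, -0.10, with no filter. MHC class II genes had 0.26 with doublets left out. Genes higher in basal than in spinous cells numbered 619, 104 and 1404 (PBS) and 1329, 132 and 3685 (DTX) with a filter of 10 CPM, 100 CPM and none. Genes lower numbered 100 and 710 (PBS) and 123 and 1336 (DTX) at 100 CPM and with none. Apart from the filters, which change how many genes are compared, the cause was not tested. Of 31 named genes past 2-fold, 26 to 31 stayed past it under each of 9 alternatives. The ratios of all 116 named genes were also counted as the same or moved. With up to 10% mitochondrial UMIs 47 moved, without the highest cell of each gene 27, and after thinning 24. Under the remaining alternatives 0 to 10 moved. The 73 DTX cells limit depth, since a count of 3 UMIs there is 2.68 CPM.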
